A study of Sus scrofa with 2 samples.

Results

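The cyclins, the cyclin-dependent kinases (CDKs), the CDK inhibitors and the E2F and RB family genes were followed here in porcine (Sus scrofa) granulosa cells after SMAD4 knockdown. The set holds 46 genes chosen by function, of the 34570 genes that the deposited tables list. A row was found for 44 of them. Of these, 38 are listed under the gene's own symbol, and 6 (CCND1, CDK2, CDK6, CDKN2C, E2F6 and CDC25A) under a gene number that a RefSeq table of assembly Sscrofa11.1 names. CDKN1C and E2F2 were not matched to a row and were not analysed here.

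Granulosa cells are the somatic cells that line the ovarian follicle and surround the oocyte. SMAD4 is the partner protein through which TGF-beta, activin and BMP receptors reach the nucleus. The cells came from the ovaries of female Chinese Erhualian pigs and received either an siRNA against SMAD4 (SMAD4-siRNA) or the siRNA labelled NC-siRNA. Each group is 1 library made from pooled total RNA of 3 individuals and read on an Ion Torrent Proton. The sources used here give neither the animals' age, the siRNA dose and the time after transfection, nor whether the same animals served both groups. No test between the conditions is possible with single libraries, and a difference between animals or transfections cannot be told apart from a difference between the siRNAs.

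The cell cycle is driven by CDKs, kinases that act only when bound to a cyclin. In G1, D-type cyclins with CDK4 and CDK6 begin to phosphorylate RB, which holds E2F transcription factors in check. Freed E2F switches on cyclin E and the genes of DNA replication. Cyclin A with CDK2, and then cyclins A and B with CDK1, carry the cell through S phase and G2 into mitosis. The INK4 and CIP/KIP proteins inhibit these kinases, and TGF-beta is known to arrest many epithelial cells in G1 by inducing the INK4 protein p15 (CDKN2B) and repressing MYC. Granulosa cells divide rapidly in growing follicles and leave the cycle at luteinization.

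Levels are given as the deposited values, which are RPKM scaled by the library's upper quartile and so are per length of the gene. Read numbers are the smallest whole numbers that fit these values. The libraries held at least 17394711 reads (SMAD4-siRNA) and 17680952 reads (NC-siRNA) on genes. Ratios are SMAD4-siRNA over NC-siRNA, and the range after each ratio is its exact Clopper-Pearson 95% interval from the reads of both libraries. Such intervals cover counting error only. A log2 ratio was taken after adding 1 to both values, and among measured genes, those whose mean value reached 1, a log2 ratio of 1 or more in either direction (2-fold) counted as higher or lower. SMAD4 itself had a value of 47.9 in the SMAD4-siRNA library and 85.0 in the NC-siRNA library, on 407 and 656 reads. Its ratio was 0.563 (0.497 to 0.639), so its RNA was lower but still present.

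Granulosa markers were present in both libraries, though not all of them. FOXL2, a granulosa identity factor, had values of 146 (SMAD4-siRNA) and 132 (NC-siRNA), and INHA, the inhibin alpha subunit, 150 and 178. CYP19A1, AMH and INHBB were listed at 0 in both libraries, and FSHR had 7 reads in the SMAD4-siRNA library and 9 in the NC-siRNA library. Of all 22826 mRNA entries, 32.8% were listed at 0 in both libraries, widely expressed genes such as FLNA, a filamin, among them, so no level can be read from a listed 0.

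Of the 44 cell cycle genes with a row, 40 were above 0, and all 40 had a mean value of at least 1. CDK4, CDKN1B, RBL2 and TFDP2 were listed at 0 in both libraries. The 40 measured genes fell into 13 of G1 control, 7 of the G1/S transition, 16 that act in S phase, G2 or mitosis, and 4 with no single stage. Genes of S, G2 and M phase were higher in the SMAD4-siRNA library, whereas genes of G1 control lay on both sides. The median log2 ratio was 0.64 over the 16 S/G2/M genes, 0.50 over the 7 G1/S genes and 0.02 over the 13 G1 genes. It was -0.05 over all 16609 measured genes. With G1 and G1/S genes together the median was 0.10, which is 0.54 below that of the S/G2/M genes. The summed value of the S/G2/M genes was 1755 in the SMAD4-siRNA library and 1078 in the NC-siRNA library, against 5514 and 5252 for the G1 genes.

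**Figure D1:**
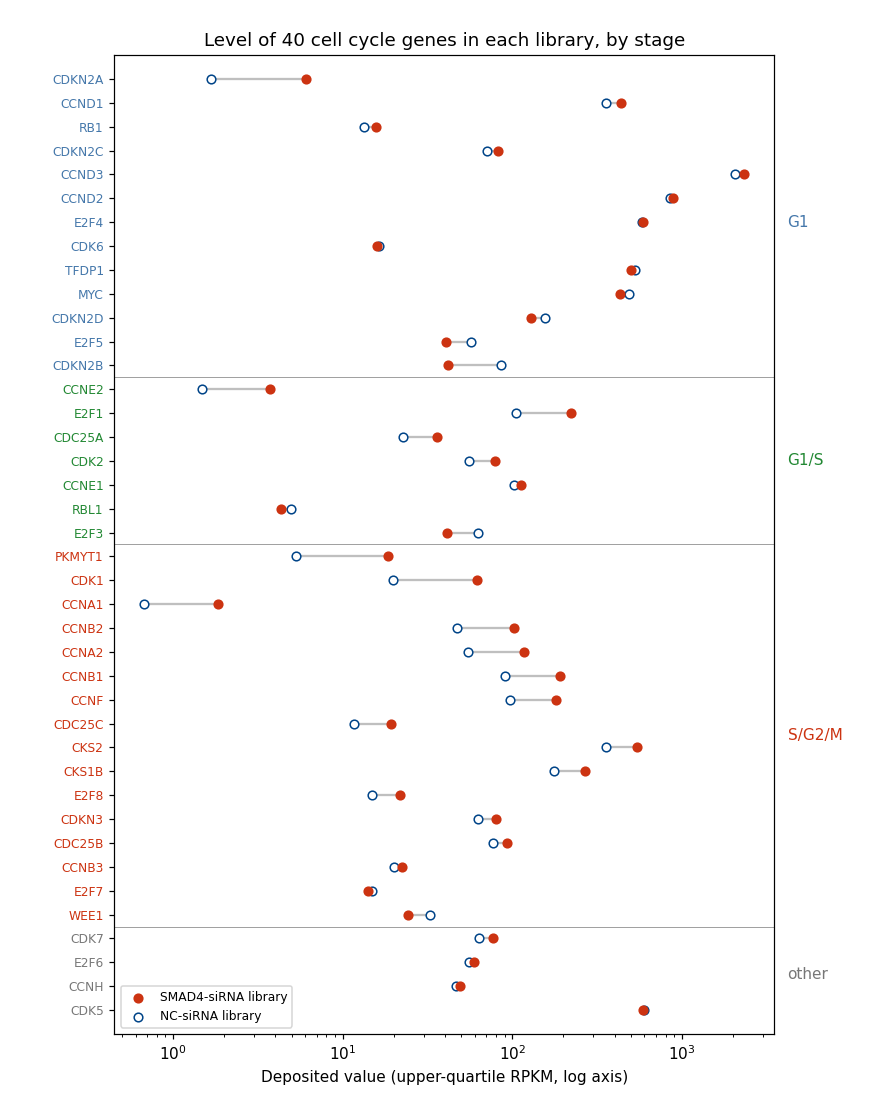
Deposited values of the 40 measured genes on a log axis, with the SMAD4-siRNA library as filled and the NC-siRNA library as open circles, ordered within each stage by their ratio. The filled circle lies to the right for 14 of 16 S/G2/M genes, for 5 of 7 G1/S genes and for 7 of 13 G1 genes. Of all measured genes, 45.5% had a log2 ratio above 0. CCNA1, among the 14, reached the mean value of 1 only through the SMAD4-siRNA library.

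In single genes, 7 of the 40 were higher by at least 2-fold and 1 was lower, where 7.17% of all measured genes were higher and 6.68% lower. The 7 were PKMYT1, CDK1, CDKN2A, CCNB2, CCNA2, CCNB1 and E2F1, and the 1 was CDKN2B. A counting interval lay wholly above 1 for 15 of the 40 and wholly below 1 for 3, where the shares over all measured genes were 12.7% and 21.5%. Of the 15, 11 were among the 16 S/G2/M genes, 2 among the 7 G1/S genes and 2 among the 13 G1 genes. Intervals narrow with reads: of the 11 S/G2/M genes with at least 100 reads, 10 had an interval above 1 and 0 below, where 17.6% and 32.4% of all genes with as many reads did. A log2 ratio above 0 was found for 29 of the 40, where 45.5% of all measured genes had one, and for all 11 of those S/G2/M genes, where 42.1% of all genes with at least 100 reads had one. The cut at 100 reads is on the sum over both libraries, so a gene with more reads in either passes it more easily. It left out WEE1 (89 reads) and E2F7 (92 reads), the 2 S/G2/M genes with a log2 ratio below 0. In bulk RNA, more cells in S, G2 or M phase and more of the S/G2/M transcripts per cell cannot be told apart.

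The scale of the libraries bears on genes near a ratio of 1. The deposited scaling gave the NC-siRNA library the larger sum of values, and equal sums would add 0.12 to the log2 of every plain ratio, and less where the added 1 weighs on low values. An equal number of recovered reads, a scaling chosen after seeing the data, would add 0.16 in the same way. Over all measured genes, intervals above and below 1 numbered 2113 and 3569 as deposited, 3536 and 2227 with equal sums, and 4109 and 1865 with equal reads. Among the 40 cell cycle genes they numbered 15 and 3, 18 and 2, and 19 and 2 in the same order. Intervals above 1 numbered 11 of the 16 S/G2/M genes under all 3 scalings. In the same order they numbered 2, 4 and 4 of the 7 G1/S genes, and 2, 3 and 4 of the 13 G1 genes. The gap of 0.54 between the S/G2/M and the G1 with G1/S genes cannot change with the scaling, apart from the effect of the added 1.

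**Figure D2:**
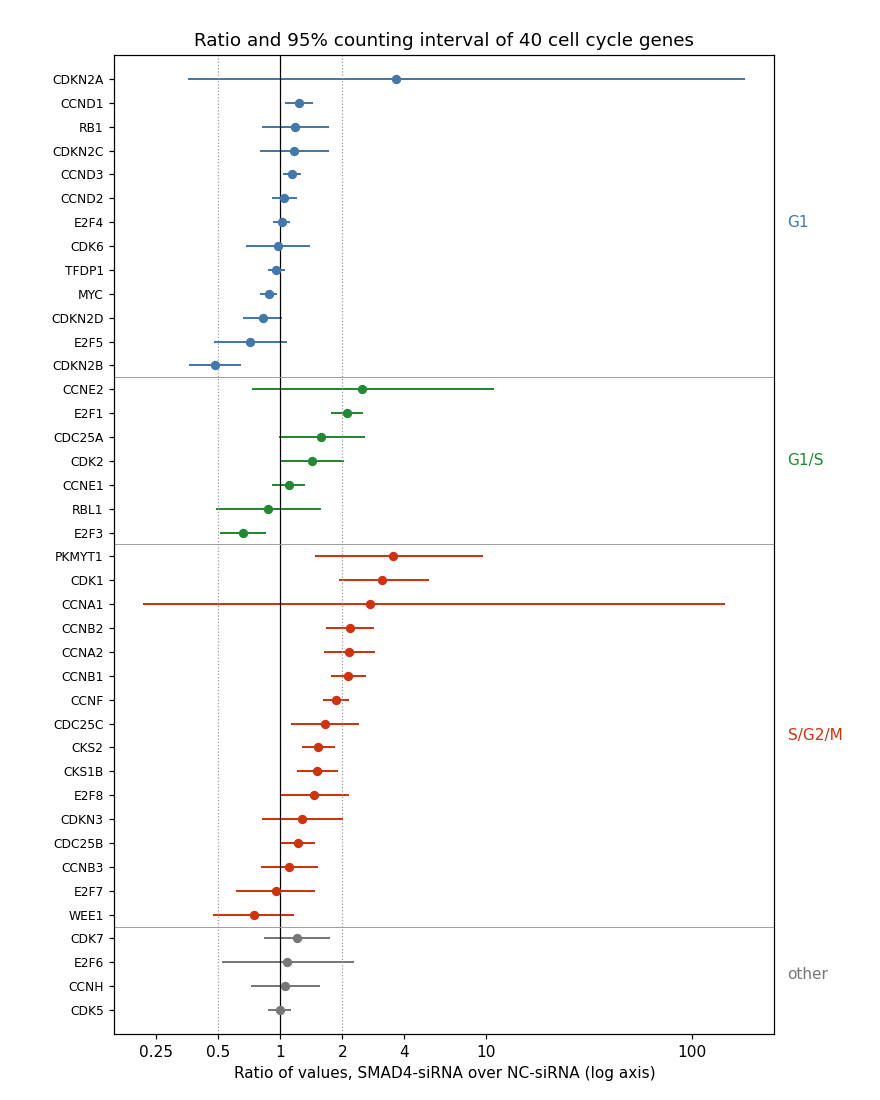
Ratio of values (SMAD4-siRNA over NC-siRNA, log axis) with the exact 95% counting interval of each of the 40 genes, with dotted lines at 2-fold in either direction. The intervals of CDKN2A and CCNA1 are the widest, on 5 and 4 reads over both libraries, and those of 11 S/G2/M genes lie wholly to the right of 1.

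Mitotic cyclins and their kinase were among the genes with the highest ratios. CCNB1, the main cyclin partner of CDK1 at entry into mitosis, had a value of 192 in the SMAD4-siRNA library and 90.1 in the NC-siRNA library, on 385 and 164 reads. CCNB2, a second B-type cyclin, had values of 102 (SMAD4-siRNA) and 47.1 (NC-siRNA), and CCNA2, the cyclin of S phase and G2, 118 and 54.8. Their ratios lay close together, at 2.13 (1.77 to 2.58) for CCNB1, 2.17 (1.69 to 2.82) for CCNB2 and 2.15 (1.64 to 2.83) for CCNA2. CDK1, the kinase that all of these bind, was lower in level and further apart, with 61.4 (SMAD4-siRNA) and 19.7 (NC-siRNA) and a ratio of 3.12 (1.94 to 5.20) on 79 and 23 reads. CCNF, an F-box cyclin that marks substrates such as ribonucleotide reductase for destruction in G2, had values of 180 (SMAD4-siRNA) and 96.7 (NC-siRNA), a ratio of 1.86 (1.63 to 2.13). It rested on at least 670 and 327 reads.

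The other members of the A and B cyclin families had intervals that span 1. CCNB3, a B-type cyclin known for its role in meiosis, had values of 22.2 (SMAD4-siRNA) and 20.1 (NC-siRNA), with an interval of 0.811 to 1.51. CCNA1, the A-type cyclin of the male germ line in mice, had 3 reads in the SMAD4-siRNA library and 1 in the NC-siRNA library, and its ratio of 2.72 had an interval of 0.219 to 143. Its values were 1.84 (SMAD4-siRNA) and 0.676 (NC-siRNA), so it reached the mean value of 1 only through the SMAD4-siRNA library. CCNB3 made up 7.01% of the summed B-type value in the SMAD4-siRNA library and 12.8% in the NC-siRNA library, while CCNB1 made up 60.7% and 57.3%. These shares do not depend on how the libraries are scaled.

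CKS1B and CKS2 encode the small subunits that dock on CDKs and help them bind phosphorylated substrates. CKS2 had the highest level of the S/G2/M genes in both libraries, 540 (SMAD4-siRNA) and 354 (NC-siRNA), on 358 and 213 reads. CKS1B, which is also needed for the destruction of p27 by the SKP2 ubiquitin ligase, had values of 267 (SMAD4-siRNA) and 177 (NC-siRNA). The ratios of this pair were nearly equal, at 1.53 (1.28 to 1.82) for CKS2 and 1.51 (1.21 to 1.88) for CKS1B, so that CKS2 stood 2.03 times as high as CKS1B in the SMAD4-siRNA library and 2.004 times as high in the NC-siRNA library. CDKN3, a phosphatase that removes the activating phosphate from CDKs, had values of 79.6 (SMAD4-siRNA) and 62.3 (NC-siRNA), with an interval of 0.821 to 2.001.

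Of the enzymes that set the inhibitory phosphates on CDK1, the 2 kinases lay on opposite sides of 1, with intervals that do not overlap. PKMYT1, the membrane-bound kinase, had a value of 18.6 in the SMAD4-siRNA library and 5.30 in the NC-siRNA library, a ratio of 3.50 (1.49 to 9.53) on only 27 and 7 reads. WEE1, the nuclear kinase, had 24.1 (SMAD4-siRNA) and 32.5 (NC-siRNA), a ratio of 0.741 whose interval of 0.476 to 1.15 spans 1. PKMYT1 stood at 0.771 of the WEE1 level in the SMAD4-siRNA library and at 0.163 of it in the NC-siRNA library.

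All 3 CDC25 phosphatases, which remove those phosphates, had a log2 ratio above 0. CDC25B, a starter of mitosis, was the most abundant of them, with values of 93.4 (SMAD4-siRNA) and 77.1 (NC-siRNA) and a ratio of 1.21 (1.01 to 1.45). CDC25C, which acts at entry into mitosis, had 19.2 (SMAD4-siRNA) and 11.7 (NC-siRNA), a ratio of 1.65 (1.14 to 2.39) on 87 and 48 reads. CDC25A, which acts on CDK2 at the G1/S transition, had 35.8 (SMAD4-siRNA) and 22.6 (NC-siRNA), a ratio of 1.58 (0.999 to 2.55) whose interval just reaches 1 and lies above it with equal sums.

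Among the E2F genes, E2F1 and E2F3 lay on opposite sides, although both encode activators of S phase genes. E2F1 had a value of 222 in the SMAD4-siRNA library and 105 in the NC-siRNA library, on 487 and 210 reads, a ratio of 2.11 (1.79 to 2.49). E2F3 had 41.3 (SMAD4-siRNA) and 62.4 (NC-siRNA), on 115 and 158 reads, a ratio of 0.661 (0.515 to 0.846). E2F1 thus stood 5.37 times as high as E2F3 in the SMAD4-siRNA library and 1.69 times as high in the NC-siRNA library. E2F1 took 22.4% of the summed value of the 7 measured E2F genes in the SMAD4-siRNA library and 11.8% in the NC-siRNA library.

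E2F4, the E2F that represses with RB family proteins in resting cells, had the highest level of the family in both libraries. Its values of 592 (SMAD4-siRNA) and 582 (NC-siRNA) gave a ratio of 1.02 (0.936 to 1.11), on 1196 and 1068 reads. With equal sums the E2F4 ratio was 1.10 (1.02 to 1.20). E2F5, its close relative, had 40.7 (SMAD4-siRNA) and 57.0 (NC-siRNA) with an interval of 0.479 to 1.06.

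The atypical repressors E2F7 and E2F8, which shut down E2F targets late in S phase, had low levels. E2F8 had values of 21.7 (SMAD4-siRNA) and 14.9 (NC-siRNA), a ratio of 1.46 (1.003 to 2.13) that barely excludes 1. E2F7 had 14.01 (SMAD4-siRNA) and 14.8 (NC-siRNA), a ratio of 0.949 that became 1.03 with equal sums, with intervals spanning 1 under both. E2F6, a repressor that does not bind RB, had 19 and 16 reads, and TFDP1, the DNA-binding partner of E2F proteins, had values of 503 (SMAD4-siRNA) and 526 (NC-siRNA). The TFDP1 ratio was 0.957 (0.881 to 1.04), and 1.04 with equal sums.

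**Figure D3:**
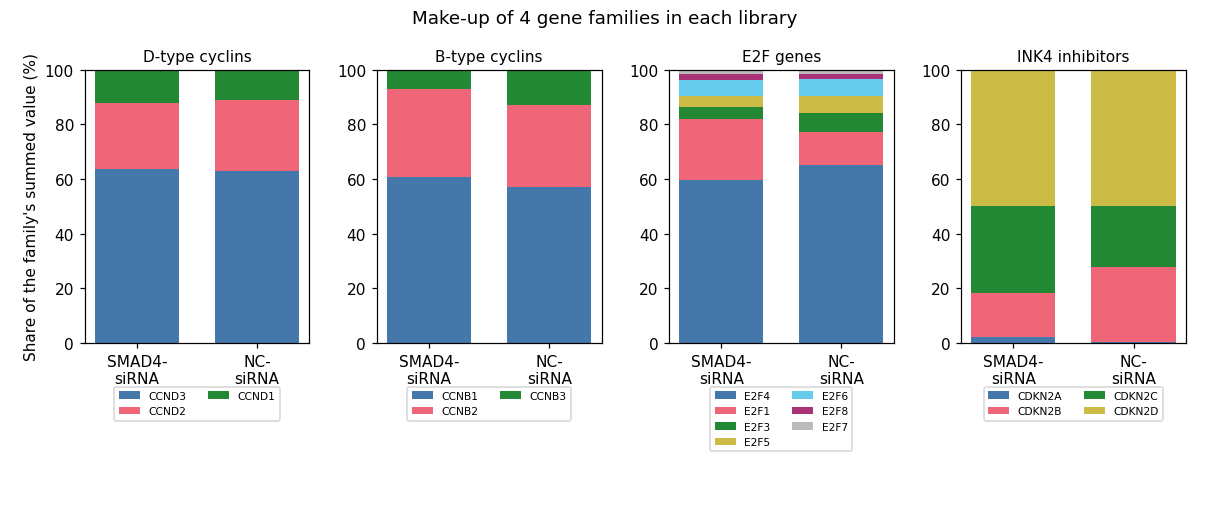
Share of each member in the summed deposited value of its family in the SMAD4-siRNA library (left bar) and the NC-siRNA library (right bar), where per-length values allow genes to be added. E2F1 holds 22.4% against 11.8% of the E2F genes and CDKN2B 16.1% against 27.3% of the INK4 genes, while the D-type cyclins keep nearly the same make-up, with CCND3 at 63.7% and 63.0%.

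The RB family was measured at low levels. RB1, the retinoblastoma protein gene, had values of 15.8 (SMAD4-siRNA) and 13.4 (NC-siRNA), on 74 and 57 reads, and a ratio of 1.18 (0.823 to 1.70). RBL1, which encodes p107 and is itself an E2F target, had 4.35 (SMAD4-siRNA) and 4.97 (NC-siRNA), on 26 and 27 reads, and a ratio of 0.875 (0.490 to 1.56). The E2F1 ratio of 2.11 lies above the interval of either gene, and the CCND1 ratio of 1.23 lies within both.

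D-type cyclins couple growth signals to the cycle, and 2 of them had the highest values of the members in both libraries. These values are per length. Recovered reads are lower bounds, found at smallest lengths of 489 bases for CCND3 and 571 bases for CCND2, so the order of the members by reads is not known. CCND3 came first of all 40, with a value of 2333 in the SMAD4-siRNA library and 2050 in the NC-siRNA library, on 1118 and 892 reads. CCND2, the D-type cyclin known to respond to FSH in rodent granulosa cells, came next with 888 (SMAD4-siRNA) and 848 (NC-siRNA). CCND1 had 439 (SMAD4-siRNA) and 356 (NC-siRNA). Their ratios were small, at 1.14 (1.04 to 1.24) for CCND3, 1.05 (0.919 to 1.19) for CCND2 and 1.23 (1.07 to 1.43) for CCND1. CDK6, a kinase partner of these cyclins, had 15.9 (SMAD4-siRNA) and 16.4 (NC-siRNA), with a ratio of 0.975 (0.691 to 1.38) that became 1.06 with equal sums. CDK4, the other partner, was listed at 0.

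The INK4 inhibitors, which bind CDK4 and CDK6, lay on both sides of 1. CDKN2B, the p15 gene and a TGF-beta target in epithelial cells, had a value of 41.5 in the SMAD4-siRNA library and 85.8 in the NC-siRNA library, on 83 and 156 reads. Its ratio of 0.483 (0.366 to 0.635) was the lowest of the 40, and its log2 ratio of -1.03 became -0.92 with equal sums, short of 2-fold. CDKN2D (p19) was the most abundant INK4 gene, with 128 (SMAD4-siRNA) and 156 (NC-siRNA) and a ratio of 0.820 (0.665 to 1.01). CDKN2C (p18) had 82.2 (SMAD4-siRNA) and 70.6 (NC-siRNA), with an interval of 0.802 to 1.70. CDKN2A, which encodes p16, had 4 reads in the SMAD4-siRNA library and 1 in the NC-siRNA library, and its ratio of 3.63 had an interval of 0.359 to 179. Over the 4 INK4 genes the summed value was 258 (SMAD4-siRNA) and 314 (NC-siRNA). CDKN2D kept 49.7% of that sum in both libraries, while CDKN2C held 31.9% (SMAD4-siRNA) and 22.5% (NC-siRNA).

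MYC, a growth regulator that TGF-beta represses in many epithelial cells, had values of 429 (SMAD4-siRNA) and 489 (NC-siRNA), on 1036 and 1073 reads. The MYC ratio of 0.877 (0.804 to 0.956) lay below 1 as deposited, but with equal sums it was 0.952 (0.873 to 1.04), so its interval then spanned 1. CCNE1, the main cyclin of the G1/S transition here, had 113 (SMAD4-siRNA) and 103 (NC-siRNA), a ratio of 1.10 (0.922 to 1.31). With equal sums the CCNE1 ratio was 1.19 (1.001 to 1.42), an interval that barely excludes 1. CCNE1 made up 96.8% (SMAD4-siRNA) and 98.6% (NC-siRNA) of the E-type cyclin value, since CCNE2 had only 11 and 4 reads. CDK2, the kinase of cyclins E and A, had 79.0 (SMAD4-siRNA) and 55.5 (NC-siRNA), a ratio of 1.42 (1.01 to 2.02) on 91 and 58 reads. CCNE1 stood at 0.959 of the CCNA2 level in the SMAD4-siRNA library and at 1.88 times that level in the NC-siRNA library.

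The 4 genes with no single stage lay close to 1. CDK5, whose main known work is in neurons and which needs no cyclin, had the highest level of the 5 CDKs measured among the members, at 590 (SMAD4-siRNA) and 594 (NC-siRNA). Its ratio was 0.992 (0.884 to 1.12), and 1.08 with equal sums. CDK7 and CCNH, which together activate other CDKs and serve in transcription, had ratios of 1.20 (0.845 to 1.71) and 1.06 (0.725 to 1.54). E2F6 had 1.08 (0.525 to 2.24).

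**Figure D4:**
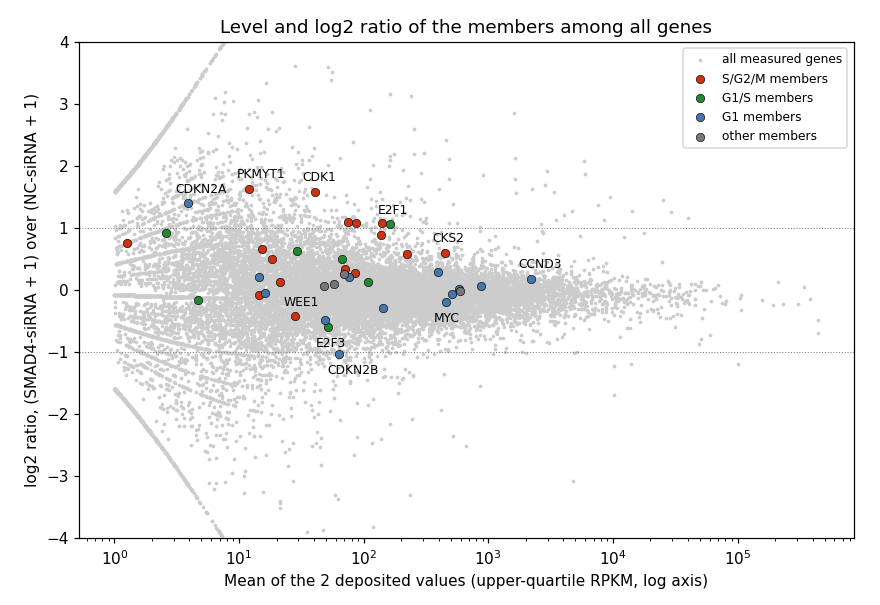
Log2 ratio against the mean of both deposited values for all measured genes (grey) and the 40 members, coloured by stage. The S/G2/M genes lie mostly above the centre of the grey cloud, the most abundant members lie near 0, and 73 grey points fall outside the vertical axis.

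Related genes outside the set were read from lists drawn up by function, in the same way, and their interval counts stand beside the 12.7% above and 21.5% below 1 of all measured genes. Genes that mark G2 and mitosis were the closest in direction to the S/G2/M members. All 19 measured, of 22 listed, had a log2 ratio above 0, with 8 past 2-fold and 15 with an interval above 1. CENPE (2.94 in SMAD4-siRNA, 0.518 in NC-siRNA) and KIF11 (3.63 and 0.940) reached the mean value of 1 only through the SMAD4-siRNA library. Both are in all of these counts. The median of the 19 was 0.87, from 0.39 for KIF23, a kinesin of cytokinesis, to 1.56 for BUB1B, a spindle checkpoint kinase with 38 and 11 reads. Genes that E2F switches on for S phase had a median of 0.36 over 14 measured of 20 listed, with 12 above 0. Their intervals numbered 9 above 1 and 1 below as deposited, and 10 and 0 with equal sums. CDT1, which licenses replication origins, had the highest ratio of that list at 2.33 (1.85 to 2.97). RRM1, a ribonucleotide reductase subunit, had the lowest at 0.873 (0.779 to 0.979), and its interval spans 1 with equal sums. These lists were measured in the same 2 libraries as the members and are not independent of them. MKI67, BUB1, POLA1 and, among the cell type markers below, PDGFRA have a second entry, and only the one under their own symbol was read. TOP2A was read from an entry under an older symbol, TOPOII.

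The transcription factors that switch on the G2 and M genes include MYBL2 and FOXM1, which work with the MuvB complex. MYBL2 had values of 1980 in the SMAD4-siRNA library and 1217 in the NC-siRNA library, on 5251 and 2930 reads, a ratio of 1.63 (1.56 to 1.70). FOXM1 had 50.5 (SMAD4-siRNA) and 32.8 (NC-siRNA), a ratio of 1.54 on 83 and 49 reads. LIN37, a MuvB subunit, had the lowest ratio of its list among entries with at least 20 reads, at 0.778 (0.677 to 0.893). Of the 9 genes in that list, 3 had an interval above 1 and 2 had one below, or 3 and 1 with equal sums.

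Cyclins and CDKs with roles outside the division cycle lay on both sides of 1. Of 11 other cyclins measured, 0 had an interval above 1 and 5 had one below, with a median log2 ratio of -0.15. With equal sums these counts were 3 and 2, and with equal reads 3 and 0, so the split rests on the scaling. Their ends were CCNT2, a partner of CDK9, at a ratio of 1.32 on 16 and 11 reads, and CCNT1, another such partner, at 0.631 (0.413 to 0.956). Of 15 other CDKs, 4 had an interval above 1 and 2 below, with a median of 0.08. CDK9, the kinase that releases paused RNA polymerase, was the highest of these among entries with at least 20 reads, at 1.49 (1.36 to 1.64), with values of 1262 (SMAD4-siRNA) and 846 (NC-siRNA). CDK8, a Mediator kinase, was the lowest at 0.468 (0.244 to 0.864), on at least 17 and 33 reads, found at a smallest length of 272 bases. It has a second entry in the tables, so its reads may be split.

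In the MYC network 3 of 9 had an interval above 1 and 2 below, or 3 and 1 with equal sums, with a median of 0.09. The deposited count below 1 was near the share over all genes. MXD3, a MAX partner that is expressed in S phase, had the highest ratio there at 2.27 (1.66 to 3.13), with values of 85.1 (SMAD4-siRNA) and 37.5 (NC-siRNA). MAX itself had the lowest among entries with at least 20 reads, at 0.780 (0.705 to 0.863). Ubiquitin ligase genes of G1 and S had a median of -0.06 over 7, with 0 intervals above 1 and 3 below, a split that became 2 and 1 with equal sums and 2 and 0 with equal reads. SKP2, which marks p27 for destruction, was highest at 1.20 (0.819 to 1.78), and FBXO5, an inhibitor of the anaphase-promoting complex, was lowest at 0.727 on 12 and 15 reads.

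**Figure D5:**
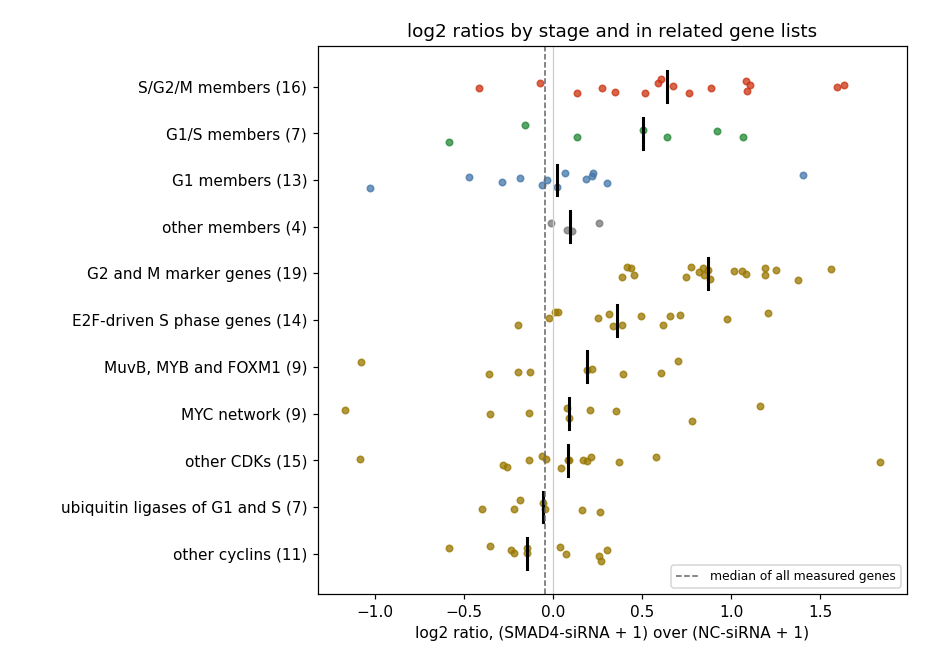
Log2 ratios of single genes by stage and in 7 related lists, with the number measured in parentheses, a black bar at each median and a dashed line at the median of all measured genes. The S/G2/M members (median 0.64) and the G2 and M marker genes (0.87) lie furthest to the right, and the other cyclins (-0.15 as deposited) furthest to the left.

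Markers of cell types were read beside these values, and their part in the cell cycle result was not tested. Granulosa markers had a median log2 ratio of -0.06 over 12 measured of 15, with 1 interval above 1 and 2 below (2 and 1 with equal sums), and a summed value of 3391 (SMAD4-siRNA) and 3277 (NC-siRNA). The interval above 1 was that of INHBA, with values of 868 (SMAD4-siRNA) and 663 (NC-siRNA) and a ratio of 1.31 (1.22 to 1.41). Among entries with at least 20 reads, HSD17B1, the oestrogenic steroid dehydrogenase, was the highest at 1.93 (0.789 to 5.17) on 17 and 8 reads. AMHR2, the AMH receptor, was the lowest at 0.493 (0.266 to 0.886). Theca markers had a median of -0.19 over 5 of 8, with 3 intervals below 1 (2 with equal sums), and a sum of 30622 (SMAD4-siRNA) and 39833 (NC-siRNA), nearly all of it the collagen COL3A1. DCN, a matrix proteoglycan, was their lowest at 0.743 and TCF21 their highest at 0.939, and the defining theca genes CYP17A1, INSL3 and LHCGR were listed at 0 in both libraries.

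Leukocyte markers had 4 measured of 8 and a sum of 573 (SMAD4-siRNA) and 583 (NC-siRNA), almost wholly CD14, with 0 intervals that excluded 1 and a median of 0.33 set by genes with few reads. PTPRC, their defining gene, had 2 reads in the SMAD4-siRNA library and 1 in the NC-siRNA library, and CD3E was listed at 0. Endothelial markers had a sum of 352 (SMAD4-siRNA) and 452 (NC-siRNA) over 5 of 8. Their median was -0.19, with 2 intervals below 1 (1 with equal sums). Among entries with at least 20 reads, ERG was at 0.582 and PECAM1 at 0.875. Of the 5, 2 had a log2 ratio above 0, KDR on 13 and 5 reads and CLDN5 on 9 and 6. TEK and TIE1 were listed at 0. Surface epithelium markers had a median of 0.16 over 4 of 5 and a sum of 467 (SMAD4-siRNA) and 422 (NC-siRNA), with UPK3B highest at 1.15 and KRT19 lowest at 0.984 among entries with at least 20 reads. MSLN was listed at 0. Erythroid and oocyte markers had 1 and 2 measured genes, at medians of -0.11 and 0.16 and sums of 4.63 and 61.7 (SMAD4-siRNA) against 4.53 and 77.4 (NC-siRNA). Of the oocyte markers, GDF9 had a ratio of 0.772 and BMP15 1.82 on 2 and 1 reads, and ZP2, ZP3, DAZL and DDX4 were listed at 0.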

How the data were processed

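RNA-seq was measured in 1 SMAD4-siRNA and 1 NC-siRNA library, each a pool of 3 individuals, per the labels' protocols. The deposited tables are named as upper-quartile RPKM, which is taken as the authors' unit. The sources used here name no aligner, counter, build or annotation. Values were used as deposited. Reads were recovered from them: 665 genes shared the commonest ratio of values, 0.908163, and with divisors of 980 (SMAD4-siRNA) and 890 (NC-siRNA) all 18428 genes above 0 gave whole reads at a whole length (maximum 40000 bases; tolerance 2e-09 relative or 1e-06 absolute). The divisors were fixed only up to a common factor, and this choice gave 960 and 1571 bases for the 12S and 16S rRNA entries. The smallest whole numbers were taken, so reads are lower bounds, which by itself widens the intervals. No molecular identifiers are recorded, so reads may be copies of 1 molecule, which would make the intervals too narrow.

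Counting intervals were exact Clopper-Pearson (95%, scipy 1.17.1). Steps were tested on simulated data. Stage and list membership follow textbook roles. Members, lists and alternatives were chosen with earlier results of these data known. In full are named the members whose interval excludes 1 or that pass 2-fold, the D-type cyclins, CDK4, CDK6, the inhibitors and the RB family, and of each list the highest and lowest ratio with at least 20 reads. Named outside that rule, after their values were seen, are the other members, FOXM1, CENPE, KIF11, FOXL2, INHA, INHBA, FSHR, COL3A1, CD14, PTPRC, PECAM1, KDR, CLDN5, BMP15, FLNA and genes listed at 0. Sequences and coordinates were not used here, since the build of the tables is not given.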

Additional observations from a re-analysis of the deposited data

How the results depend on the processing

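Under the 11 alternatives run for the medians, the S/G2/M median stayed above the G1 and G1/S median: the difference, which scaling cannot move apart from the pseudocount, ran from 0.46 (pseudocount of 5) to 0.63 (at least 100 reads), the S/G2/M median from 0.56 to 0.80 and the G1 and G1/S median from 0.02 to 0.26. The 0.63 is partly due to the cut itself, which left out WEE1 and E2F7, the 2 S/G2/M genes with a log2 ratio below 0. SMAD4 ran from -0.83 to -0.65 on the log2 scale. Intervals above 1 numbered 12 to 19 and below 1 numbered 2 to 3 of the members. Members higher by at least 2-fold numbered 7, against 14 at 1.5-fold and 0 at 4-fold. Members lower numbered 1, against 2 at 1.5-fold, and 0 at 4-fold, with a pseudocount of 5, with centring on the median, and with equal sums or equal reads. All genes higher and lower numbered 1191 and 1110, against 466 and 437 with a pseudocount of 5, 572 and 546 with a mean value of at least 5, 128 and 108 with at least 100 reads, 2245 and 2277 at 1.5-fold, and 378 and 351 at 4-fold. A stricter minimum or threshold leaves fewer calls by construction. Of 200 values of single members under 5 alternatives, 196 stayed within their counting interval and 4 moved outside it, all with equal reads: CCND3 (0.35), E2F4 (0.19), TFDP1 (0.10) and MYC (-0.03). A rescaling shifts all members nearly alike, so only genes with narrow intervals could move outside. The 196 therefore do not show that the ratios of genes with few reads are stable. Using the entries listed under a symbol alone, the 6 members named from RefSeq left out, the difference was 0.62. Equal reads, symbols alone, 99% intervals and the alternatives on interval counts, those of the related lists included, were chosen after seeing the data. No paired analysis was possible because each group has 1 library, and no library could be left out. Genes with under 20 reads, such as CDKN2A, CCNA1 and CCNE2, are too shallow for a ratio near those of the mitotic cyclins to be told from 1.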
